A study of Homo sapiens with 8 samples.

Results

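The genes described here are the enzymes and transporters of glycolysis together with genes of the cellular response to low oxygen. They were taken as every probe whose annotated gene symbol, or its current synonym, belongs to a given list of 35 genes. The rule itself uses no measured value, but the list was drawn up with earlier results of these data known. Of these, 32 genes had a probe, with 46 probes in all, among 15550 genes with a probe and a symbol. They comprise 19 of 20 listed glycolytic genes, 10 of 12 hypoxia-response genes and all 3 listed subunits of the hypoxia-inducible factor (HIF). PGK1, CA9 and EGLN3 are not analysed here. RNA from A549, a human cell line established from a lung adenocarcinoma, was hybridised to Illumina HumanRef-8 v3 BeadChips, on which bead-bound oligonucleotides are read as fluorescence intensities. The groups were 4 arrays of cells treated for 24 h with 100 nM dexamethasone, a synthetic glucocorticoid, and 4 arrays of cells at 0 h. The labels give 100 nM dexamethasone for the 0 h arrays too, with a time of 0 h. All 8 arrays are of cells that carry shGLP, a hairpin against the histone H3 lysine 9 methyltransferase GLP (EHMT1), and all were grown in phenol red-free medium with charcoal-stripped serum before hormone. Whether the 0 h cells received vehicle, and whether the hairpin cells are a clone or a pool, is not given in the sources used here. Cells without this hairpin are not analysed here, so every value below describes hairpin-bearing cells only.

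Glycolysis splits glucose into pyruvate in the cytosol. The glucose transporter GLUT1 brings the sugar in, hexokinase traps it by phosphorylation, phosphofructokinase commits it to the pathway, and lactate dehydrogenase converts the end product to lactate. When oxygen is scarce the prolyl hydroxylases of the EGLN family no longer mark HIF-1α for destruction, and HIF-1α with its partner ARNT then raises transcription of many glycolytic genes and of genes such as BNIP3, P4HA1 and NDRG1. DDIT4 (REDD1), an inhibitor of the growth kinase mTORC1, and NDRG1, a stress-response gene named for N-myc, are well known to respond to hypoxia and to other stimuli, and DDIT4 is also a known glucocorticoid target.

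The arrays detected 13897 to 14797 probes each. EHMT1, the target of the hairpin, lay close to background, at 5.78, 5.72, 5.68 and 5.81 (log2 normalized intensity) on the 24 h arrays and at 5.48, 5.57, 5.13 and 5.38 on the 0 h arrays. Its signal exceeded background on all 4 of the 24 h arrays but only 1 of the 0 h arrays, and the difference, 0.36 ± 0.13 (SE), was short of the threshold (adjusted p = 0.13, limma). Of 10 markers of A549 cells, 9 were detected on all 8 arrays, and KRT8, KRT18 and CPS1 were called higher at 24 h. Of the markers of other cell types, COL1A2, COL3A1 and PDGFRB (fibroblasts), CD3E, PTPRC and TYROBP (leukocytes) and CDH5, TEK and VWF (endothelium) were detected on no array. COL1A1 (fibroblasts), CD14 and CD68 (leukocytes) and PECAM1 and TIE1 (endothelium) were detected on all 8. By probe ILMN_2347145, the fibroblast marker DCN was detected at 24 h only and was at least 2.98-fold higher there (adjusted p = 0.00119, limma). This bound sets the mean of the 24 h arrays against the lowest detected signal of each 0 h array, or the probe's own if higher. A second DCN probe, ILMN_1683194, was detected at neither time. COL1A1 fell by 1.22 on the log2 scale (adjusted p = 0.0385, limma). The part of these markers in the results below was not tested. Replicates 1 and 2 of both times shared slide 1, and replicates 3 and 4 shared slide 2. Nothing in the labels says whether the replicates came from separate cultures, so the p-values measure only the spread between these samples.

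At 24 h of dexamethasone, HK1 (hexokinase 1) rose 1.57-fold while most other glycolytic genes stayed within a small range. By the brightest probe of each gene, the largest differences were those of the hypoxia-response genes NDRG1, DDIT4 and P4HA1. These were about 2.02-fold, 2.05-fold and 1.58-fold higher at 24 h. EGLN1, also a hypoxia-response gene, was 1.36-fold lower, a smaller change than that of HK1. The glycolytic gene PFKFB4 was 1.34-fold lower. Limma with Benjamini-Hochberg adjustment over all tested probes called 1 of the 32 members at an adjusted p under 0.05, HK1, which is 3.12% of the members. Over all 10964 genes tested, 10.1% were called, with 4.72% higher and 5.34% lower at 24 h, so the members' share lay below the background share. Arrays with the same replicate number deviated together, and with this number as a block 6 members passed, which is 18.8% of them against 17% of all genes. These were HK1, NDRG1, P4HA1 and DDIT4, higher at 24 h (7.99% of all genes were), and EGLN1 and PFKFB3, lower at 24 h (8.98% of all genes were). With the slide as a block, 4 members passed, NDRG1, P4HA1 and HK1 higher and EGLN1 lower, against 13.7% of all genes. The members' share of calls was thus near the background in the blocked fit. In bulk RNA, fewer cells that express a gene and less RNA per cell cannot be told apart.

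**Figure D1:**
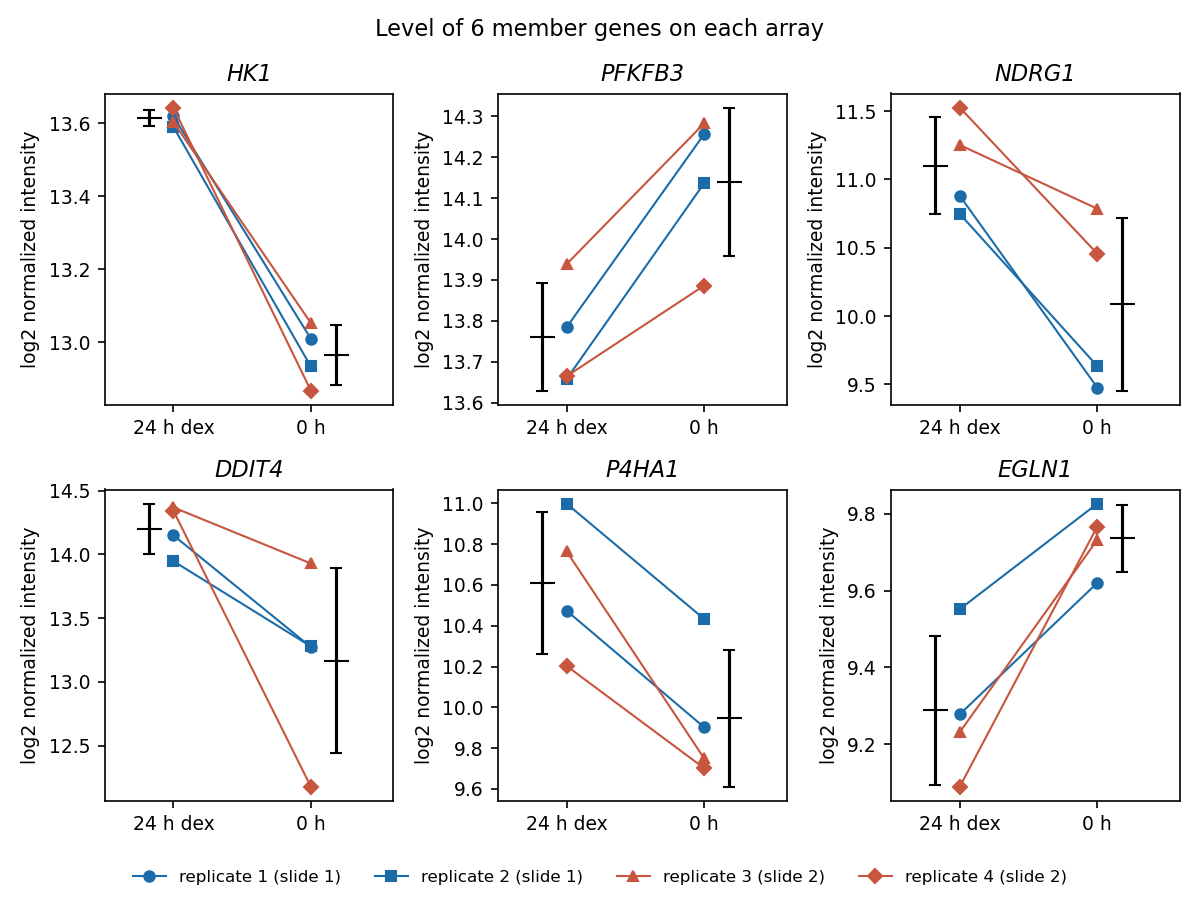
Level of 6 member genes on each array (log2 normalized intensity, vertical axis, own scale per panel), with the 24 h dexamethasone arrays left of the 0 h arrays. Lines join arrays of the same replicate number, colours mark the slide, and black bars give mean ± SD (n = 4); HK1, NDRG1, DDIT4 and P4HA1 are higher at 24 h in all 4 pairs, and PFKFB3 and EGLN1 are lower in all 4.

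HK1, which phosphorylates glucose on entry, measured 13.62, 13.59, 13.60 and 13.64 on the 24 h arrays against 13.01, 12.93, 13.05 and 12.87 on the 0 h arrays (probe ILMN_2382990, log2 normalized intensity, as for all levels below). The groups did not overlap, and the 24 h arrays were the tighter group, with an SD of 0.02 against 0.08 at 0 h. The difference of 0.65 ± 0.11 on the log2 scale had an adjusted p of 0.00457 (limma), and 0.0061 with the replicate block. A second HK1 probe, ILMN_1761829, gave 0.73 ± 0.16 with an adjusted p of 0.014 (limma), and ILMN_1755548, also annotated to HK1, failed the detection filter. HK1 was called whichever single array was left out (adjusted p = 0.0096 to 0.0198), but not on slide 1 alone (0.63, adjusted p = 0.0795) or slide 2 alone (0.66, adjusted p = 0.0874), each with 4 arrays.

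The other steps at the top of glycolysis gave smaller differences. SLC2A1, which encodes GLUT1, had 11.76, 11.70, 12.28 and 12.22 at 24 h against 12.02, 12.05, 12.06 and 12.41 at 0 h. The groups overlapped, and the difference was -0.15 with a 95% interval of -0.53 to 0.23. HK2, the hexokinase isozyme classically induced by hypoxia and growth signals, was dim: 6.23, 6.54, 6.36 and 6.87 at 24 h against 5.34, 6.99, 6.79 and 6.48 at 0 h, with 3 detections on the 0 h arrays. Its replicate pairs disagreed in sign, from -0.46 to 0.89, so the direction of HK2 is not settled by these arrays. GPI, which interconverts glucose 6-phosphate and fructose 6-phosphate, differed by 0.08 (adjusted p = 0.772, limma).

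At the phosphofructokinase step, the genes were the enzyme's subunits and the bifunctional enzymes that set its allosteric activator, fructose 2,6-bisphosphate. PFKFB3, the isozyme that mainly raises this activator, had 13.78, 13.66, 13.94 and 13.66 at 24 h against 14.26, 14.14, 14.28 and 13.89 at 0 h. It was lower at 24 h in all 4 pairs, by 0.22 to 0.48, although the highest 24 h array exceeded the lowest 0 h array. The difference was -0.38 ± 0.14 (adjusted p = 0.121, limma), and it passed with the replicate block (adjusted p = 0.0433), but in none of the 4 blocked fits that left out a pair (adjusted p = 0.067 to 0.153).

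PFKFB4, a related isozyme, had 10.43, 9.97, 10.31 and 10.35 at 24 h against 11.11, 10.78, 10.65 and 10.24 at 0 h. It was lower in 3 pairs and higher in pair 4, and its difference of -0.43 ± 0.19 did not pass (adjusted p = 0.213, and 0.124 with the block, limma). The catalytic subunits PFKL, PFKM and PFKP differed by 0.00, 0.16 and -0.13, and none passed in either fit.

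In the later steps of the pathway, from aldolase to lactate, no gene passed in either fit. ALDOA, TPI1, GAPDH, ENO1, PKM and LDHA, the main isoforms of their steps, differed by -0.06 to 0.06 by their brightest probes. Further tested probes gave -0.16 and -0.13 for ALDOA, -0.13 for GAPDH, and -0.17 and 0.06 for PKM. None of these further probes passed in either fit. For the brightest probe of GAPDH, the glyceraldehyde phosphate dehydrogenase often used as a loading reference, the difference was -0.04 with a 95% interval of -0.29 to 0.20. Some of the brightest probes neared the top of the scale. Their unprocessed intensities reached 60190 for GAPDH, 60735 for ENO1 and 64421 for LDHA, where the highest intensity of an array was 59067 to 68985. What this proximity to the top of the scale does to their differences was not tested.

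PGAM1, which moves the phosphate of phosphoglycerate, had 12.97, 12.89, 12.50 and 12.91 at 24 h against 13.19, 13.01, 13.01 and 13.38 at 0 h. All 24 h arrays lay below all 0 h arrays, yet the difference of -0.33 ± 0.15 did not pass (adjusted p = 0.228, and 0.089 with the block, limma). LDHB, the lactate dehydrogenase chain that predominates in oxidative tissues, had 14.56, 14.77, 14.49 and 14.43 at 24 h against 14.26, 14.36, 14.24 and 14.18 at 0 h. Here all 24 h arrays lay above all 0 h arrays, and the difference of 0.30 ± 0.12 did not pass either (adjusted p = 0.181, and 0.0743 with the block, limma). ALDOC and ENO2, the isoforms best known from brain, differed by -0.08 and -0.31, with pairs of both signs.

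**Figure D2:**
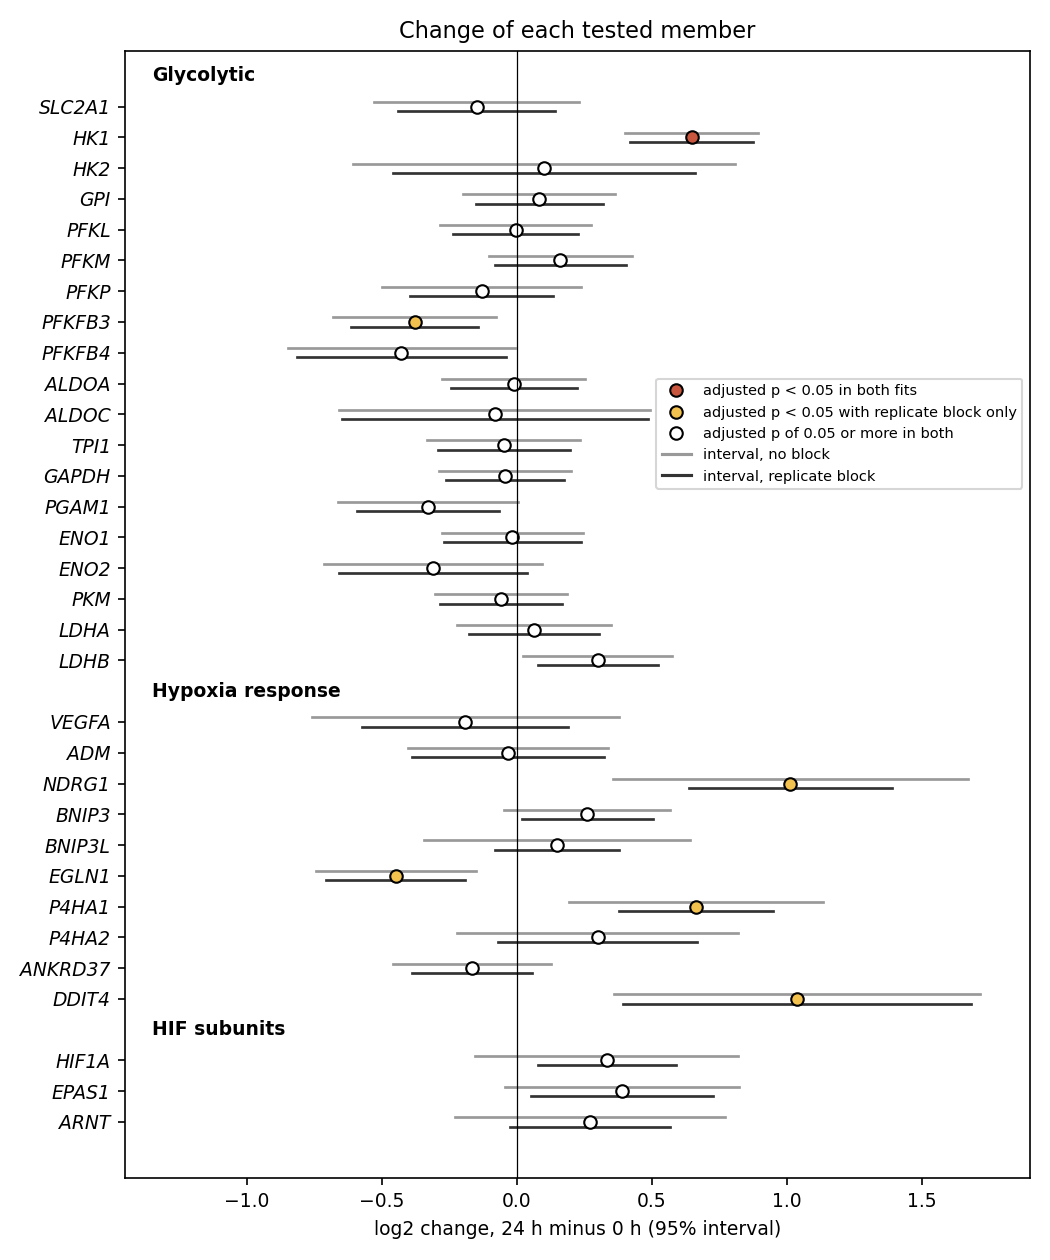
Log2 change at 24 h minus 0 h of the 32 members (points, horizontal axis), grouped by role, with 95% intervals without (grey) and with (black) the replicate number as a block. Point colour gives the call at an adjusted p under 0.05: HK1 passed in both fits, and NDRG1, DDIT4, P4HA1, EGLN1 and PFKFB3 passed only in the blocked one of these fits.

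Among the hypoxia-response genes, NDRG1 had 10.88, 10.75, 11.25 and 11.53 at 24 h against 9.48, 9.63, 10.79 and 10.46 at 0 h (probe ILMN_1809931). Both times were brighter on slide 2, and the times overlapped (0 h replicate 3 above 24 h replicate 2), while every pair was higher at 24 h, by 1.40, 1.11, 0.47 and 1.07. The difference of 1.01 ± 0.30 had an adjusted p of 0.0587 (limma), which became 0.00753 with the replicate block and 0.00257 with the slide as a block. It was 1.26 on slide 1 and 0.77 on slide 2, and it passed in all 4 blocked fits that left out a pair.

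DDIT4 had 14.15, 13.95, 14.37 and 14.34 at 24 h against 13.27, 13.28, 13.93 and 12.18 at 0 h (probe ILMN_1661599). Every 24 h array lay above every 0 h array, and 0 h replicate 4 was by far the lowest. The pairs differed by 0.88, 0.67, 0.44 and 2.17, so pair 4 carried much of the mean difference of 1.04 ± 0.31. The adjusted p was 0.0604 (limma) and 0.0434 with the replicate block. Of the 4 blocked fits without a pair, only the one without pair 4 called DDIT4 (adjusted p = 0.0367 to 0.0803), with a smaller difference of 0.66.

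P4HA1, the catalytic subunit of the prolyl hydroxylase that stabilises collagen, had 10.47, 11.00, 10.76 and 10.20 at 24 h against 9.90, 10.43, 9.75 and 9.70 at 0 h (probe ILMN_1693334). The groups overlapped, but each pair was higher at 24 h, by 0.50 to 1.01. The difference of 0.66 ± 0.21 had an adjusted p of 0.0824 (limma) and 0.0124 with the block, and it passed in all 4 blocked fits without a pair. The related P4HA2 differed by 0.30 with a 95% interval of -0.22 to 0.82, and a second tested probe gave 0.09 (adjusted p = 0.866, limma).

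EGLN1 (PHD2), the main oxygen sensor that targets HIF-1α for degradation and itself a HIF target, went the other way, with 9.28, 9.55, 9.23 and 9.09 at 24 h against 9.62, 9.83, 9.73 and 9.77 at 0 h (probe ILMN_1749892). All 24 h arrays lay below all 0 h arrays. The difference of -0.45 ± 0.13 had an adjusted p of 0.0632 (limma) and 0.0336 with the block, but 0.0694 to 0.107 once a pair was left out.

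The mitophagy receptors BNIP3 and BNIP3L were higher at 24 h in all 4 pairs, and ANKRD37, an ankyrin-repeat HIF target, was lower in all 4. Their differences of 0.26, 0.15 and -0.17 did not pass in either fit. VEGFA, the vascular growth factor, differed by -0.19, with pairs from -0.60 to 0.22, and a second tested VEGFA probe gave -0.25 (adjusted p = 0.342, limma). ADM, which encodes the vasodilator adrenomedullin, differed by -0.03 (adjusted p = 0.941, limma). Thus neither secreted hypoxia-response product passed.

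The stretches before the transcription starts of DDIT4 and P4HA1, higher at 24 h in all 4 pairs, and of EGLN1 and ANKRD37, lower in all 4, are shown so that the genes of opposite direction can be set side by side. Each is the 250 bases before the single RefSeq start on assembly GRCh38.p14, with capitals for ACGTG or GCGTG, the core letters of the hypoxia response element, on either strand.
DDIT4 (chr10:72273674-72273923, plus strand): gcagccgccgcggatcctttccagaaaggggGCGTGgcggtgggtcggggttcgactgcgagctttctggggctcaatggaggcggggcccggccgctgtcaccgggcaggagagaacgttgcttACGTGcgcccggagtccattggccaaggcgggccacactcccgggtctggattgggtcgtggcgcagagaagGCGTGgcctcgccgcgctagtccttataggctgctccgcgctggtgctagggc
P4HA1 (chr10:73096867-73097116, minus strand): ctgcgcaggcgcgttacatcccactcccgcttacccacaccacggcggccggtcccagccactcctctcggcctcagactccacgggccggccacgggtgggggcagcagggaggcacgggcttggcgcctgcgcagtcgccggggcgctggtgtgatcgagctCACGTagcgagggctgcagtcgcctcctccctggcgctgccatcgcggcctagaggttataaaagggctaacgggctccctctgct
EGLN1 (chr1:231422288-231422537, minus strand): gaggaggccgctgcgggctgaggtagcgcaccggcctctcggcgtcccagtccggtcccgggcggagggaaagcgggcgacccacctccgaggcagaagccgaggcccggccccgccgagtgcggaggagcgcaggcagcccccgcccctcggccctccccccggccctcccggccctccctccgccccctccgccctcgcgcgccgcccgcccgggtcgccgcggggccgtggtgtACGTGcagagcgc
ANKRD37 (chr4:185396591-185396840, plus strand): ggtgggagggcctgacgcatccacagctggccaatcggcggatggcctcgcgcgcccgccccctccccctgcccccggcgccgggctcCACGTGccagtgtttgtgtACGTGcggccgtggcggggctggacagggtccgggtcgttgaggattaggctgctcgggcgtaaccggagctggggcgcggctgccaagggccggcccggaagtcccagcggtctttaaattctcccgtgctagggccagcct
The letters ACGTG, read on both strands, were found once in DDIT4, P4HA1 and EGLN1 and 3 times in ANKRD37, where a CACGTG counts on both strands. GCGTG was found 2 times in DDIT4 and in none of the other three. Among these 4 shown genes, the core letters thus stood in genes of both directions. Of other members with a single start and the same sign in all 4 pairs, BNIP3 (higher) and GAPDH (lower) held core letters. LDHB (higher) and PGAM1 (lower) held none. ANKRD37, BNIP3, GAPDH, LDHB and PGAM1 passed in neither fit, so for them the direction is only the sign of the pairs. GAPDH differed by -0.04 (adjusted p = 0.87, limma), and its second probe had pairs of both signs. RefSeq's table held promoters for 32 of the 35 listed genes, of which 23 have 1 start; HK1 has 7 and PFKFB3 has 2, and they are not shown. Of these 23, 11 held ACGTG against 18.4% of the 22114 genes with 1 start in the table, and 9 held GCGTG against 31.1%. The 23 include PGK1, CA9 and EGLN3, which have no probe analysed here. These counts are thus not those of the measured members alone. PGK1 held both runs of letters, CA9 held ACGTG only and EGLN3 held neither. For AGAACA, the letters of a glucocorticoid receptor half-site, it was 1 of 23 (GPI) against 12.6%, and the full palindrome of the glucocorticoid response element, AGAACA and TGTTCT with 3 bases between them, stood in none of the 23 and in 1 of the 22114. A match is a run of letters, not a bound site, and a missing match says only that the letters are not in this window.

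The 3 HIF subunits had positive differences, and none passed in either fit. HIF1A, the oxygen-regulated alpha chain, had 11.14, 11.36, 10.74 and 10.55 at 24 h against 10.77, 11.00, 10.22 and 10.46 at 0 h. Its groups overlapped, with slide 1 brighter than slide 2 at both times, while each pair was higher at 24 h, by 0.09 to 0.52. The difference was 0.33 ± 0.22 (adjusted p = 0.434, and 0.0807 with the block, limma), and a second probe gave 0.28. EPAS1 (HIF-2α) had 12.94, 13.12, 13.17 and 12.73 at 24 h against 12.98, 12.84, 12.47 and 12.13 at 0 h. Its difference was 0.39 ± 0.20 (adjusted p = 0.278, and 0.113 with the block, limma), with pair 1 near 0. ARNT (HIF-1β) was near background, detected on 2 of 4 arrays at each time.

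As groups, the 19 glycolytic genes had a median change of -0.04 and the 10 hypoxia-response genes one of 0.20, beside -0.01 over all genes tested. The hypoxia-response median was 0.08 without 24 h replicate 2 and 0.12 without 0 h replicate 3. With the replicate block, 1 glycolytic gene was higher and 1 lower at 24 h, and 3 hypoxia-response genes were higher and 1 lower, beside 7.99% higher and 8.98% lower of all genes. Of the glycolytic genes 13 of 19 differed by less than 0.2 in size, beside 51.8% of all genes. Within the pairs, the glycolytic median was -0.01, -0.03, -0.02 and 0.05 in pairs 1 to 4, and the hypoxia-response median 0.07, 0.28, 0.25 and 0.09. The hypoxia-response median was thus the higher of the 2 in each pair. Without DDIT4 and NDRG1, the remaining 8 hypoxia-response genes had a median of 0.06, and -0.02, 0.16, 0.17 and 0.06 in pairs 1 to 4. In pair 1 this reduced median (-0.018) lay below the glycolytic one (-0.015), and in the other pairs above it.

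In all 4 pairs the sign was the same for 6 of 19 glycolytic genes and for 7 of 10 hypoxia-response genes, beside 41.2% of all genes (19.5% higher and 21.7% lower). The 6 were HK1, PFKM and LDHB, higher, and PFKFB3, GAPDH and PGAM1, lower. The 7 were NDRG1, BNIP3, BNIP3L, P4HA1 and DDIT4, higher, and EGLN1 and ANKRD37, lower. For 5 members the 24 h and 0 h arrays were fully separated (17.4% of all genes): HK1, LDHB and DDIT4 with 24 h above (8.26% of all genes) and PGAM1 and EGLN1 with 24 h below (9.10%). These are descriptions of the lists, and no test of glycolytic against hypoxia-response genes was made.

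**Figure D3:**
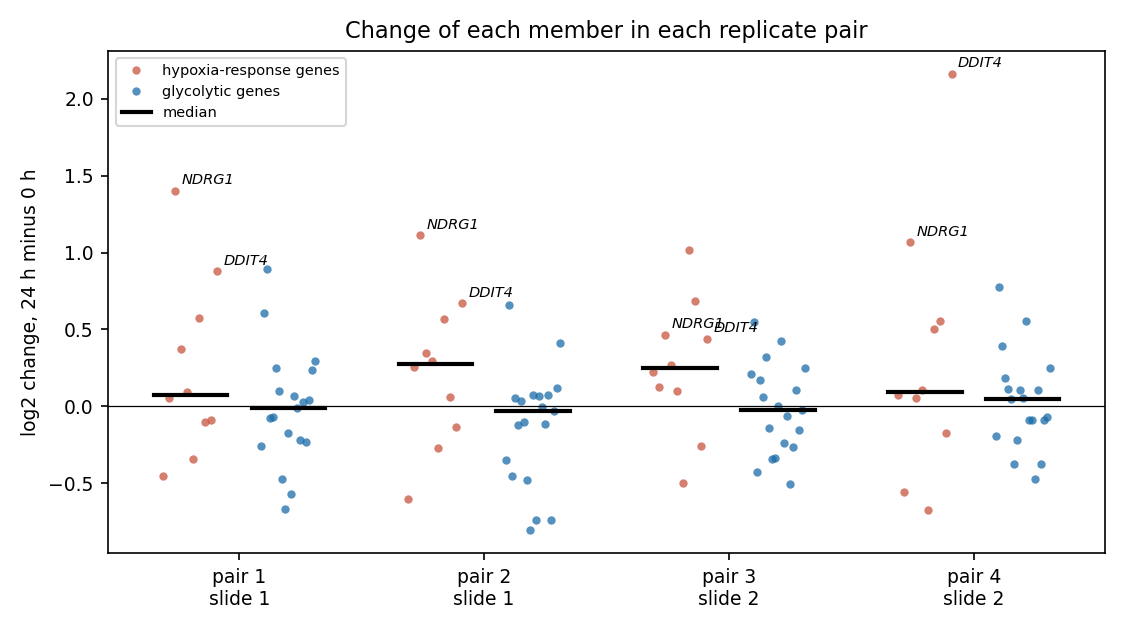
Log2 change, 24 h minus 0 h, of each hypoxia-response gene (red, left) and glycolytic gene (blue, right) in replicate pairs 1 to 4, with the median of each list as a black bar. NDRG1 and DDIT4 lie above 0.4 in every pair, DDIT4 reaches 2.17 in pair 4, and the glycolytic medians stay between -0.03 and 0.05.

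Whether a member's change differed between the slides was tested with a time-by-slide term. No gene was called among 10964 (0.00%), with 846 at an unadjusted p under 0.05, of which 2 were members. Neither member passed, the lowest adjusted p among the members being 0.56 (limma, P4HA2), with slide 2 minus slide 1 at 0.64 on the log2 scale. A second tested P4HA2 probe, ILMN_2280135, gave 0.13 (adjusted p = 0.956, limma). ALDOC had a larger slide 2 minus slide 1, 1.15 (adjusted p = 0.569, limma), with -0.66 on slide 1 and 0.49 on slide 2.

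Further genes around these pathways were grouped by role, also with earlier results of these data known. In glycogen metabolism, PYGB, the brain-type glycogen phosphorylase that releases glucose 1-phosphate, rose 2.69-fold, with 13.16, 13.28, 13.54 and 13.41 at 24 h against 11.73, 11.86, 11.94 and 12.13 at 0 h. PPP1R3C, a scaffold that directs protein phosphatase 1 to glycogen, rose 1.85-fold, with 13.02, 13.11, 12.58 and 12.61 at 24 h against 12.03, 12.04, 12.14 and 11.55 at 0 h. In both genes every 24 h array lay above every 0 h array. The log2 differences were 1.43 ± 0.14 (adjusted p = 0.000182, limma) and 0.89 ± 0.18 (adjusted p = 0.0107, limma). Of 13 tested genes of gluconeogenesis and glycogen, these 2 rose and none fell (15.4% called, beside 10.1% of all genes), and the median change was 0.31. By p-value the next were the glycogen synthesis genes UGP2 and GYS1, at 0.34 and 0.31, which did not pass (adjusted p = 0.172 and 0.186, limma). UGP2 passed with the replicate block (adjusted p = 0.0495, limma), but in none of the 4 blocked fits without a pair (0.114 to 0.145).

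At the pyruvate end, MPC1, a subunit of the carrier that brings pyruvate into mitochondria, rose 1.94-fold, with 11.94, 11.97, 11.93 and 11.91 at 24 h against 11.10, 11.23, 10.81 and 10.80 at 0 h. The 24 h arrays were all higher and closer together, with an SD of 0.02 against 0.21 at 0 h (0.95 ± 0.13, adjusted p = 0.0016, limma). GALM, which interconverts the anomers of hexoses, fell by 0.61 on the log2 scale (adjusted p = 0.0154, limma), a call lost without 24 h replicate 3 (adjusted p = 0.0518). These were the only calls among 21 tested genes of this list (9.52%, beside 10.1% of all genes), whose median change was 0.00. HKDC1, a further hexokinase, and PFKFB2, an isozyme of PFKFB3, differed by -0.70 and 0.56 without passing (adjusted p = 0.0792 and 0.0903, limma). Both passed with the replicate block and with the slide as a block. For HKDC1 the replicate-block call held in all 4 blocked fits without a pair (adjusted p = 0.0158 to 0.0323, limma). For PFKFB2 that call held in 1 of the 4.

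Of 34 other hypoxia-response genes tested, 4 rose and 2 fell (17.6% called, beside 10.1% of all genes), and the median change was 0.04. CITED2, which competes with HIF-1α for its coactivators, rose 2.24-fold, with 10.53, 10.85, 10.61 and 10.17 at 24 h against 9.31, 9.33, 9.36 and 9.50 at 0 h (1.17 ± 0.15, adjusted p = 0.00115, limma). RAB20, a small GTPase, was detected on no 0 h array and was at least 1.50-fold higher at 24 h, by the bound given for DCN (adjusted p = 0.00296, limma). CXCR4, a chemokine receptor, was by probe ILMN_1801584 detected on no 24 h array and at least 1.51-fold lower there by the same rule (adjusted p = 0.00307, limma). The CXCR4 probes ILMN_2246410 and ILMN_2320888 were detected at neither time.

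SPAG4, a nuclear envelope protein, rose by 0.67, a call lost without 24 h replicate 4 (adjusted p = 0.0521, limma). AK4, a mitochondrial adenylate kinase, rose by 0.43 and lost its call whichever of the 8 arrays was left out (adjusted p = 0.0538 to 0.126, limma). IGFBP3, a carrier of insulin-like growth factors, fell by 1.07 and lost its call in 4 of the 8 fits without one array (adjusted p up to 0.0583, limma), those without 24 h replicate 1 or 2 or without 0 h replicate 3 or 4. With the replicate block it passed (adjusted p = 0.00101, limma), also in all 4 blocked fits without a pair (0.00438 to 0.0087). A second IGFBP3 probe, ILMN_2396875, gave -1.16 (adjusted p = 0.00555, limma), with all 24 h arrays below all 0 h arrays. ANG (angiogenin) and BHLHE40, a transcriptional repressor, differed by 0.91 and -0.47 without passing (adjusted p = 0.0546 and 0.109, limma). Both passed with the replicate block, a call that held in 3 of the 4 blocked fits without a pair for ANG and in 1 of the 4 for BHLHE40.

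Of 14 tested genes of oxygen sensing and HIF partners, 1 was called (7.14%, beside 10.1% of all genes). This was HSP90AB1, a chaperone of HIF-1α and of the glucocorticoid receptor, which fell by 0.50 (adjusted p = 0.0389, limma). Its call was kept in only 2 of the 8 fits without one array, those without 24 h replicate 2 or 0 h replicate 1. OS9 and ARNT2 differed by 0.35 and -0.29 and did not pass in either fit. Among 20 genes of mTOR and its brakes the median change was -0.002, with 10 positive and 10 negative changes, from -0.62 to 0.86. None was called (beside 10.1% of all genes), with 1 at an unadjusted p under 0.05. That gene, DDIT4L, the paralog of DDIT4, had 8.76, 8.74, 9.28 and 8.84 at 24 h against 9.75, 9.63, 9.69 and 9.05 at 0 h. Its difference of -0.62 ± 0.19, opposite in sign to that of DDIT4, passed with the block (adjusted p = 0.0363, and 0.0698 without it, limma), but in 1 of the 4 blocked fits without a pair, and SESN3 differed by -0.34. Of the other NDRG genes, NDRG4 was lower at 24 h in all 4 pairs (-0.54, adjusted p = 0.0706, and 0.036 with the block, limma), a block call lost in all 4 blocked fits without a pair (0.0602 to 0.123), and NDRG2 differed by -0.28.

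**Figure D4:**
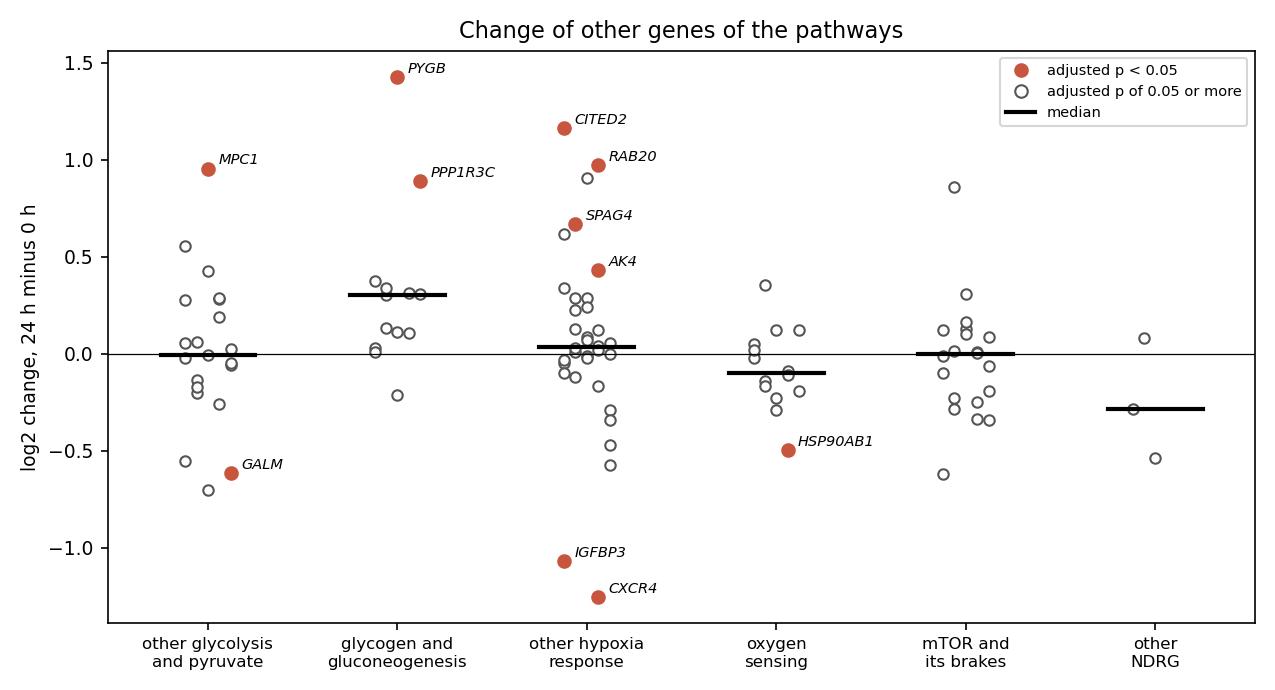
Log2 change, 24 h minus 0 h, of each tested gene of 6 lists around the pathways (points; filled where the adjusted p was under 0.05), with the list's median as a black bar. Called genes are named, and the glycogen and gluconeogenesis list has the highest median, 0.31.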

How the data were processed

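Per the file headers, the deposited table holds a mean bead intensity for each of 25204 probes and 8 arrays and a detection p-value for each. The second table has the authors' log2 values of 22011 probes, made with limma per the submitters' processing notes, with steps not given in the sources used here; it served as an alternative. Intensities were background-corrected with nec of limma 3.58.1 (R 4.3.3, offset 16), quantile normalized over those 22011 probes and put on the log2 scale. The 14533 probes with a detection p-value under 0.05 on at least 4 arrays were tested with lmFit and eBayes, two-sided, with Benjamini-Hochberg adjustment over them all and a threshold of 0.05. A gene is its brightest tested probe, which gave 10964 genes. Of 22011 probes, 19759 have a gene symbol and 2252 have none in the platform annotation, updated through RefSeq (GRCh38.p14). A ± after a difference is the standard error of the fit.

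Same-numbered arrays deviated together from their group means (correlations 0.463, 0.454, 0.367 and 0.454 over pairs 1 to 4, each highest with its own number), so the fit with the replicate number as a block is given where it changes a call. The scripts were tested on simulated data. Alternatives covered background, normalization, filters, blocks, slides and left-out arrays. The members and lists were chosen with earlier results of these data known. Named genes are all members and, of each other list, the called ones and the 2 of smallest p not called. The number of arrays limits the precision.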

Additional observations from a re-analysis of the deposited data

Results flagged for a closer look

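At 4 arrays a group, 64 groups (32 members at 2 times) were checked for an array far from the rest by Dixon's criterion, and 2 exceeded the 95% critical value, where chance gives about 1 in 20. SLC2A1 at 24 h was 11.76, 11.70, 12.28 and 12.22 on the log2 scale, and replicate 4 at 0 h, at 12.41 (12.4096), stood above the other 0 h arrays (12.02 to 12.06). PGAM1 on the 24 h array of replicate 3, at 12.50 (12.5007), stood below the other 24 h arrays (12.89 to 12.97), and also below every 0 h array.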

How the results depend on the processing

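Numbers of calls over all genes were 1103 in the fit as reported, 1861 with the replicate block, 494 on slide 1 alone and 402 on slide 2 alone. The number of members called was 1 as reported, 6 with the replicate block, 4 with the slide as a block, 4 without background correction (HK1, NDRG1, DDIT4 and EGLN1), 2 with array medians in place of quantiles (HK1 and DDIT4), 1 on slide 1 alone (NDRG1) and 0 on slide 2 alone. The single-slide fits have fewer arrays. With the replicate block the medians of both lists were unchanged, and the median standard error of the members was 0.108, against 0.158 without it. For all settings but the single-slide fits, the cause of the different numbers of calls was not tested. Leaving out each array in turn gave 760 to 1027 genes, 1 to 3 members, a glycolytic median of -0.058 to -0.016 and a hypoxia-response median of 0.082 (without 24 h replicate 2) to 0.30. These fits added EGLN1 without 24 h replicate 2 (adjusted p = 0.0341), P4HA1 without 0 h replicate 2 (0.0334), and NDRG1 and DDIT4 without 0 h replicate 3 (0.0231 and 0.0191, limma). In fits with the replicate block and without each pair, added after the data were seen, 1016 to 1319 genes and 3 to 4 members were called, with medians of -0.05 to -0.03 and 0.17 to 0.20. The medians of both lists kept their sign under every alternative run. Among the members and the named genes of the other lists, no called gene reversed. Among the genes named, the replicate block changed no call beyond those given in the text. The time-by-slide term called 0 genes in all 4 settings run. Genes near background, such as ARNT, HK2 and EHMT1, limit what these arrays can show, as do the brightest probes of GAPDH, ENO1 and LDHA.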
